A study of Mus musculus with 36 samples.

Results

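The genes described here are 7 members of the tumour necrosis factor (TNF) ligand and receptor superfamilies, *Tnf*, *Tnfsf11*, *Tnfrsf1a*, *Tnfrsf1b*, *Tnfrsf11b*, *Cd40* and *Fas*. They were taken by gene symbol from a count table of 53421 genes, in which each symbol had 1 row, and from the matching TPM table. Poly(A) RNA came from a mouse fibroblast-like chondrocyte line, wild type apart from its conditional immortalization, which had been kept with interferon-γ at a permissive temperature and was released from both before the experiments. Cells received a non-targeting siRNA pool (NT) or a siRNA pool against *Ift88* (IFT88siRNA), which encodes an intraflagellar transport protein needed to build primary cilia. Each group was then sampled in medium only (0 h) or after exposure to 10 ng/ml interleukin 1β (IL-1β) that lasted 1, 2, 4, 8 or 24 h, with 3 replicates in each of 12 conditions, so 36 libraries. The labels give 50 nM siRNA and the methods of the study give 10 nM. All libraries come from 1 line, and the labels do not say whether replicates were separate cultures, so p-values measure the spread between these libraries. Cells in medium only were sampled at 0 h and not at the later times, so IL-1β and time in culture cannot be told apart.

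TNF is made as a membrane protein by many cell types and is released as a trimer by the protease ADAM17. It acts through TNF receptor 1 (*Tnfrsf1a*), which carries a death domain and is found on most cells, and through TNF receptor 2 (*Tnfrsf1b*), which lacks one and signals through TRAF adaptors. RANKL (*Tnfsf11*) drives osteoclast formation through RANK, and osteoprotegerin (*Tnfrsf11b*) is a secreted decoy receptor that binds RANKL. CD40 signals through TRAF proteins when bound by CD40 ligand, and FAS is a death receptor for FAS ligand. In cartilage, TNF and IL-1β are both known for raising the production of enzymes that break down matrix.

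Total counts on genes ran from 19337022 to 38304127 per library. *Ift88*, the targeted gene, lay between 5.83 and 10.2 CPM (counts scaled to library size, with TMM factors) in the NT libraries and between 1.43 and 3.10 CPM in the IFT88siRNA libraries, with no overlap. An antisense gene and a pseudogene overlap *Ift88*, and whether they affect its counts was not tested. The 7 fibroblast markers summed to between 2330 and 4980 CPM in NT and between 2500 and 5080 CPM in IFT88siRNA. The 8 chondrocyte markers summed to between 84.7 and 575 CPM in NT and between 100 and 498 CPM in IFT88siRNA. Among them, *Sox9* reached 12.1 to 79.6 CPM, *Col2a1* 4.04 to 21.8 CPM, *Col11a1* 47.0 to 426 CPM, *Hapln1* 6.73 to 35.6 CPM and *Comp* 5.59 to 32.7 CPM. In contrast, *Acan*, which encodes the main cartilage proteoglycan, did not exceed 0.711 CPM, *Matn3* did not exceed 0.733 CPM and *Col9a1* did not exceed 0.127 CPM. Markers of cells that are major sources of TNF or CD40 in tissue were near 0. *Ptprc* did not exceed 5 counts, *Adgre1* did not exceed 2 counts, and *Cd3e* had 0 counts in every library. The 7 leukocyte markers together ran from 5.66 to 8.78 CPM in NT and from 4.99 to 8.19 CPM in IFT88siRNA, with most of it from *Cd68* and *Lyz2*. In these bulk libraries, fewer cells expressing a gene and less RNA per cell cannot be told apart.

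The ligand *Tnf* lies on chromosome 17 of GRCm38, at chr17:35199381-35202007 on the minus strand, between *Ltb* (3060 bases away) and *Lta* (1157 bases away), which encode the lymphotoxins. In NT it had 0, 0 and 1 counts at 0 h and 247, 260 and 250 counts at 1 h. The counts then fell to 135, 130 and 197 at 2 h, 65, 72 and 99 at 4 h, 11, 16 and 20 at 8 h, and 5, 5 and 8 at 24 h. *Tnf* was thus close to absent before IL-1β, highest at the first time sampled, and lower at each later time, without overlap between successive times. Since the 3 NT libraries at 0 h held 1 count in all, the ratio of 1 h to 0 h was 859 with a 95% counting interval of 154 to 34000. In the IFT88siRNA libraries the counts were 2, 1 and 2 at 0 h and 107, 110 and 153 at 1 h. They were 60, 61 and 95 at 2 h, 42, 35 and 56 at 4 h, 6, 15 and 14 at 8 h, and 6, 11 and 3 at 24 h. The highest sampled time was therefore 1 h in both groups, though no earlier time with IL-1β was sampled. The ratio of 1 h to 0 h in IFT88siRNA was 85.2, with a counting interval of 36.2 to 264. These intervals cover counting error only.

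The promoter of *Tnf* is shown because it was, with that of *Tnfsf11*, 1 of 2 among the 5 members with a RefSeq promoter window (GRCm38.p6, 250 bases before to 50 after the start) that held a TATA element, TATAAA, on either strand. That motif was chosen after the sequences were seen, and 13.6% of 32851 mouse promoter windows of this length hold it. The capitals mark the element, 29 to 24 bases before the start, in the 250 bases at chr17:35202008-35202257, minus strand.
Tnf promoter: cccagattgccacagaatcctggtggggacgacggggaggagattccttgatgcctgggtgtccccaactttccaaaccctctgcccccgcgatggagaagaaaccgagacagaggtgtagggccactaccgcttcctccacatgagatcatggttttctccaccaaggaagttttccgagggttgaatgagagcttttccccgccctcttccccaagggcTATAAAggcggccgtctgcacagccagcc

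The strict NF-κB decamer was in 0 of the 5 windows, against 8.46% of all promoters. The AP-1 site TGANTCA, searched on both strands, was in 1 of 5, that of *Fas*, against 7.81% of all promoters. These matches describe the letters in these windows.

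*Tnf* was lower in IFT88siRNA than in NT at 1, 2 and 4 h, by more than the spread between replicates. The mean in NT was 12.3 ± 0.955 CPM (SD, n = 3) at 1 h and that in IFT88siRNA 4.97 ± 1.16 CPM, or 40.5% of NT. At 2 h the IFT88siRNA mean was 42.0% of NT and at 4 h 49.2% of NT, with no overlap between the groups at either time. The log2 fold change was -1.31 (SE 0.13) at 1 h, -1.25 (SE 0.19) at 2 h and -1.0 (SE 0.21) at 4 h. The adjusted p-values of edgeR's quasi-likelihood test were 5.25e-06, 0.00682 and 0.0122. At 8 h the groups also did not overlap, but the difference of -0.62 (SE 0.34) did not pass (adjusted p = 0.322). At 24 h they overlapped, with 0.215 CPM in NT and 0.200 CPM in IFT88siRNA, and the counts were too few for a test. The call at 1 h held without any 1 library, whereas that at 2 h was lost without IFT88siRNA replicate 1 (adjusted p = 0.0565) or 2 (adjusted p = 0.0541). The call at 4 h was lost without NT replicate 3 (log2 fold change -0.778, adjusted p = 0.0885) or IFT88siRNA replicate 1 (adjusted p = 0.0974). On the deposited TPM values, limma on log2(TPM + 1) gave a fold change of -1.03 at 2 h (adjusted p = 0.115) and -0.749 at 4 h (adjusted p = 0.175).

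**Figure D1:**
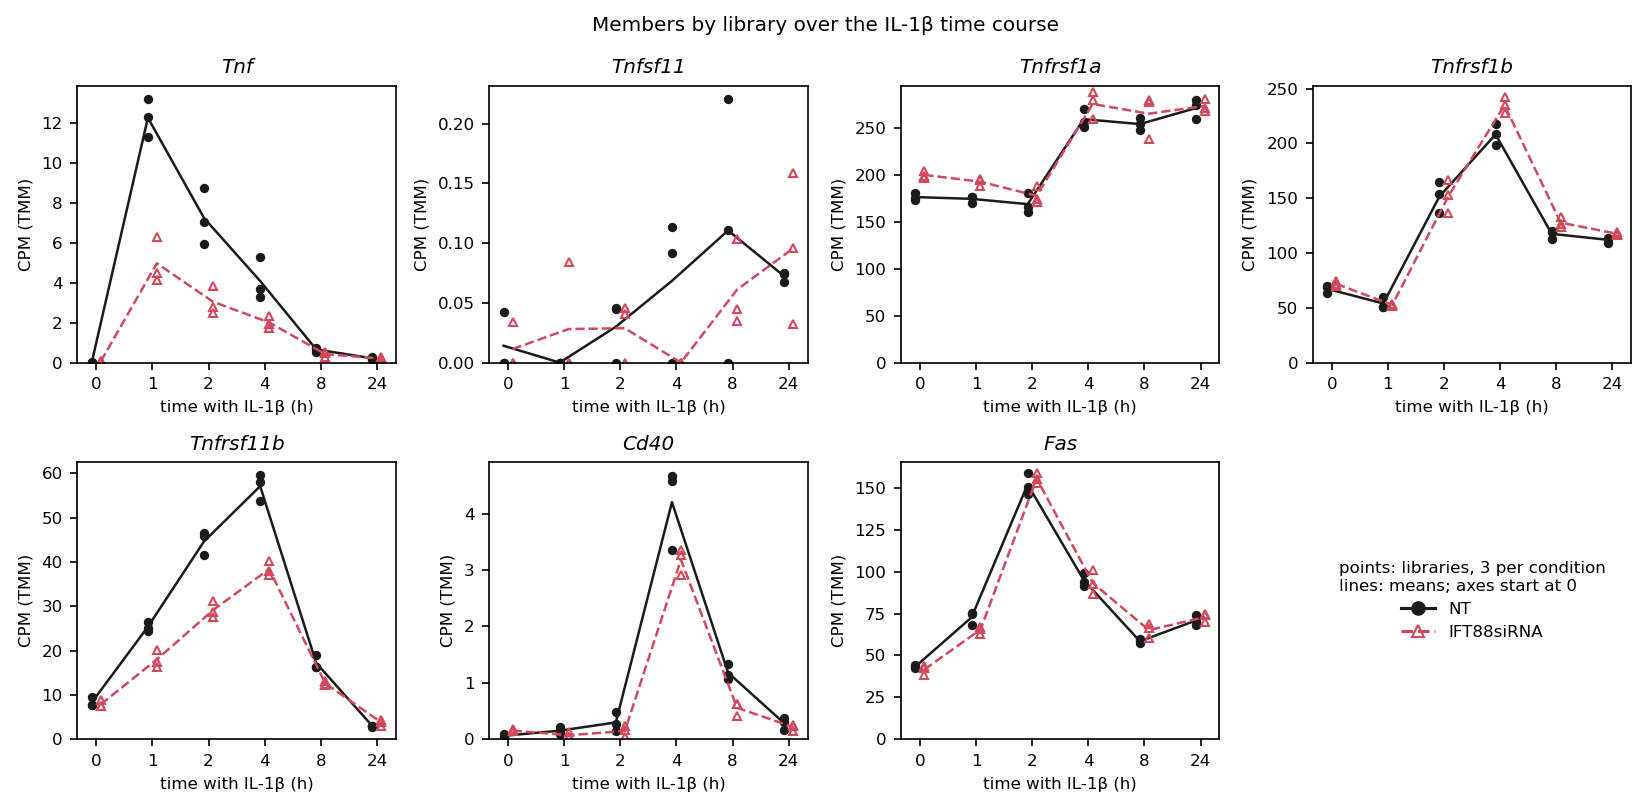
Expression of the 7 members in every library, in CPM scaled by TMM on axes that start at 0, against time with IL-1β. Filled circles and solid lines are NT, open triangles and dashed lines IFT88siRNA (3 libraries per condition, lines join means). *Tnf* was highest at 1 h (12.3 CPM in NT, 4.97 in IFT88siRNA), *Fas* at 2 h and *Tnfrsf1b*, *Tnfrsf11b* and *Cd40* at 4 h.

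The decline of *Tnf* after its peak did not pass a test of difference between the siRNA groups. The difference in the log2 change from 1 h was 0.06 (SE 0.22) at 2 h, 0.30 (SE 0.26) at 4 h, 0.70 (SE 0.46) at 8 h and 1.22 (SE 0.65) at 24 h, with adjusted p-values of 0.335 or more. This test was chosen after the levels were seen, because the 0 h counts of *Tnf* were too few to serve as a base.

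The other ligand, *Tnfsf11* (RANKL, chr14:78277445-78308043, minus strand), was at the limit of detection throughout. It had 0 counts in 16 of 36 libraries, at most 5 counts in any library, and 40 counts in all, 21 in NT and 19 in IFT88siRNA. In NT the 3 libraries together had 1 count at 0 h, 0 at 1 h, 2 at 2 h, 4 at 4 h, 8 at 8 h and 6 at 24 h. In IFT88siRNA they had 1, 2, 2, 0, 5 and 9 counts at these times. A library with 0 counts allows up to 3 counts, which is 0.127 CPM in the first NT library at 0 h. The gene did not pass the filter on low counts, so it was not tested, and no ratio of RANKL to osteoprotegerin is given.

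The signalling receptors for TNF were abundant before IL-1β. *Tnfrsf1a* (chr6:125349362-125362484, plus strand) was at 175, 180 and 174 CPM in the NT libraries at 0 h. The NT means stayed near that level at 1 h (174.5 ± 3.97 CPM, SD, n = 3) and 2 h (169 ± 10.3 CPM). They were 259 ± 10.1 CPM at 4 h, then 254 ± 6.39 CPM at 8 h, and by 24 h had reached 271 ± 10.7 CPM. In counts the libraries up to 2 h lay below those from 4 h on, and neighbouring times within each of these sets did not pass a test of difference. The change against 0 h was -0.02 (SE 0.04) on the log2 scale at 1 h and 0.62 (SE 0.04) at 24 h, the only time past 1.5-fold. The early times were not level on the deposited TPM, where the NT libraries ran from 164 to 172 TPM at 0 h and from 134 to 140 TPM at 1 h. On log2(TPM + 1), limma put the NT change at 1 h at -0.278 (adjusted p = 2.87e-05), that at 2 h at -0.38 (adjusted p = 7.81e-07) and that at 24 h at 0.455, all under 1.5-fold, and the IFT88siRNA change at 1 h at -0.218 (adjusted p = 0.000241). In IFT88siRNA the change at 24 h was 0.45 (SE 0.06), under that threshold, with an adjusted p of 3.21e-07.

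Between the siRNA groups, *Tnfrsf1a* was slightly higher in IFT88siRNA at 0 h in counts, where the libraries were at 198, 204 and 197 CPM and did not overlap those of NT. The log2 difference was 0.18 (SE 0.04, adjusted p = 0.00222) at 0 h and 0.14 (SE 0.04, adjusted p = 0.0186) at 1 h, both under 1.5-fold. On TPM the groups overlapped at 0 h, and limma gave a difference of 0.0742 there (adjusted p = 0.243) and of 0.134 for 1 h (adjusted p = 0.0531), neither of which passed. From 2 h on it lay between 0.01 and 0.08 with SEs of 0.05 to 0.06, and did not pass.

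*Tnfrsf1b* (chr4:145213463-145246870, minus strand) dipped and then rose with IL-1β. NT libraries were at 69.6, 68.8 and 63.6 CPM at 0 h, at 51.2, 50.9 and 59.7 CPM at 1 h, at 154, 136 and 165 CPM at 2 h and at 199, 208 and 218 CPM at 4 h. The 4 sets of libraries did not overlap. The log2 change against 0 h was -0.32 (SE 0.07) at 1 h, under 1.5-fold, then 1.17 (SE 0.06) at 2 h and 1.64 (SE 0.06) at 4 h. The NT means of 117.5 ± 3.76 CPM at 8 h and 112 ± 2.47 CPM at 24 h did not differ beyond their spread (adjusted p = 0.356) and stayed above 0 h. In IFT88siRNA the 4 h libraries were at 235, 243 and 227 CPM, all above the NT libraries of that time, with a log2 difference of 0.17 (SE 0.05, adjusted p = 0.0626) that did not pass. The groups did not overlap at 8 and 24 h either, but at the other 5 times the difference ran from -0.04 to 0.10, with adjusted p-values of 0.188 or more.

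The decoy receptor *Tnfrsf11b* (osteoprotegerin, chr15:54250619-54278484, minus strand) rose to 4 h and then fell below its starting level. The NT libraries had 184, 228 and 173 counts at 0 h, 497, 563 and 511 at 1 h, 878, 915 and 1046 at 2 h, and 1053, 1264 and 1011 at 4 h. They had 398, 368 and 440 counts at 8 h and 76, 79 and 90 at 24 h, fewer than in any library at 0 h. Scaled to CPM, the NT mean went from 8.28 ± 0.969 before IL-1β to 57.1 ± 3.05 at 4 h and to 2.94 ± 0.103 by 24 h. The log2 change against 0 h was 2.79 (SE 0.08) at 4 h and -1.49 (SE 0.12) at 24 h, and all 6 times differed from their neighbours in the order of levels.

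In IFT88siRNA the counts of *Tnfrsf11b* were 256, 210 and 210 at 0 h, 478, 437 and 426 at 1 h, 746, 601 and 711 at 2 h, and 817, 814 and 882 at 4 h. They were 293, 358 and 353 at 8 h and 110, 162 and 92 at 24 h. At 0 h the groups overlapped, and the log2 difference was -0.08 (SE 0.10, adjusted p = 0.631). At 1, 2, 4 and 8 h every IFT88siRNA library was below every NT library in CPM, and the IFT88siRNA means were 70.9%, 65.2%, 67.2% and 73.4% of NT. The log2 differences were -0.50 (SE 0.08), -0.62 (SE 0.07), -0.58 (SE 0.06) and -0.46 (SE 0.08). All 4 passed the adjusted p (0.000281, 0.000854, 1.87e-05 and 0.0138), while only that at 2 h was past 1.5-fold. Since the differences lie close to 1.5-fold, leaving out 1 library moved the call: at 2 h it was lost without NT replicate 3 (-0.585) or IFT88siRNA replicate 2 (-0.58). It was gained at 4 h without NT replicate 3 (-0.617) or IFT88siRNA replicate 2 (-0.603), and at 1 h without IFT88siRNA replicate 1 (-0.588). At 24 h the means were 2.94 CPM in NT and 3.74 CPM in IFT88siRNA, a log2 difference of 0.33 (SE 0.15, adjusted p = 0.205).

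*Tnfrsf11b* was the member with the lowest adjusted p in the test of a different response to IL-1β between the groups. With the 5 differences in the change from 0 h tested together, the adjusted p was 0.000548, with a largest difference of -0.54 on the log2 scale at 2 h, under 1.5-fold. Without replicate 1 the adjusted p was 0.0884, whereas without replicate 2 (largest difference -0.706) or replicate 3 (0.588) the gene passed both thresholds. Measured from 1 h instead, the change to 24 h was 0.83 (SE 0.17) less negative in IFT88siRNA than in NT on the log2 scale (adjusted p = 0.00185). This second test was chosen after the levels were seen, and 1.02% of 16710 genes were called in it.

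*Cd40* (chr2:165055627-165072948, plus strand), a receptor known from antigen-presenting cells, was expressed at very low level and mainly at 4 h. NT libraries had 1, 1 and 2 counts at 0 h, 4, 2 and 3 at 1 h, and 5, 3 and 11 at 2 h. They had 81, 73 and 88 counts at 4 h, 24, 24 and 36 at 8 h, and 10, 8 and 5 at 24 h. The 4 h libraries thus stood far above all others, and the ratio of 4 h to 0 h was 73.2, with a counting interval of 28.2 to 271. Neighbours in the order of levels among 0, 1, 2 and 24 h did not differ, while 8 h lay above 2 h (edgeR adjusted p = 1.56e-05). Against 0 h, 2 h passed (adjusted p = 0.00625), but not without replicate 1 (0.0503) or 3 (0.0758), and 24 h passed (0.01), but not without replicate 1 (0.165) or 2 (0.0569). In IFT88siRNA the counts were 4, 4 and 5 at 0 h, 1, 1 and 3 at 1 h, 1, 5 and 4 at 2 h, 63, 66 and 80 at 4 h, 14, 12 and 18 at 8 h, and 6, 6 and 8 at 24 h. The ratio of 4 h to 0 h there was 21.1, with a counting interval of 12.1 to 40.3.

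*Cd40* was tested between the siRNA groups at 4 and 8 h, where its counts passed the filter. At 4 h the means were 4.21 ± 0.741 CPM in NT and 3.18 ± 0.233 CPM in IFT88siRNA, the groups overlapped, and the log2 difference of -0.39 (SE 0.17, adjusted p = 0.23) did not pass. At 8 h they were 1.18 ± 0.141 CPM and 0.556 ± 0.122 CPM without overlap, and the difference of -1.12 (SE 0.27) passed at an adjusted p of 0.043. That call was kept in 1 of 6 fits that left out 1 library. It was lost without NT replicate 1, 2 or 3 or IFT88siRNA replicate 1 or 2, with adjusted p-values from 0.0833 to 0.195.

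*Fas* (chr19:34290666-34327772, plus strand, overlapping a small noncoding RNA gene on the same strand) was highest at 2 h in both groups. In NT the libraries were at 42.3, 43.3 and 44.4 CPM at 0 h, 74.4, 68.4 and 75.2 CPM at 1 h, and 147, 159 and 151 CPM at 2 h. They were lower again at 4 h, with 93.9, 99.5 and 91.6 CPM, and at 8 h, with 59.6, 58.5 and 57.1 CPM. At 24 h they were at 70.4, 74.4 and 67.9 CPM, above 8 h and still above 0 h. The log2 change against 0 h was 1.81 (SE 0.05) at 2 h, and 1 h and 24 h did not differ beyond their spread (adjusted p = 0.582). The 250 bases before its start, at chr19:34290409-34290658, plus strand, are shown for the AP-1 match (capitals), 211 to 205 bases before the start.
Fas promoter: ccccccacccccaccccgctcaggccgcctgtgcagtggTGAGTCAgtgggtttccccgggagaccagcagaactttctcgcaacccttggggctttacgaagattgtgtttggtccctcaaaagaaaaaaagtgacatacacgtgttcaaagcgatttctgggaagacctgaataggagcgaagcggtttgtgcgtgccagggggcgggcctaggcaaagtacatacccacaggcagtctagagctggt

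No difference of *Fas* between the siRNA groups was past 1.5-fold. At its peak the means were 152 ± 6.41 CPM in NT and 156 ± 3.03 CPM in IFT88siRNA, a log2 difference of 0.03 (SE 0.05, adjusted p = 0.816). At 1 h the IFT88siRNA libraries, at 66.0, 63.0 and 67.3 CPM, were below those of NT, with a log2 difference of -0.16 (SE 0.05, adjusted p = 0.0308) that was under 1.5-fold. At 8 h they were above those of NT, at 66.5, 68.7 and 60.1 CPM, with a log2 difference of 0.14 (SE 0.06, adjusted p = 0.193) that did not pass.

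Counted over the members, 6 of 7 passed the filter on low counts, *Tnf* and *Cd40* through the libraries with IL-1β alone. With the 5 times tested together, 6 members were called in NT, where 50.2% of all tested genes were called, and 5 in IFT88siRNA, where 48.5% were. At 1 h in NT, *Tnf*, *Tnfrsf11b* and *Fas* were called higher than at 0 h (9.31% of genes called higher). At 2 h and at 4 h *Tnf*, *Tnfrsf1b*, *Tnfrsf11b*, *Cd40* and *Fas* were called higher (13.0% and 16.3% of genes). At 8 h *Tnf*, *Tnfrsf1b*, *Tnfrsf11b* and *Cd40* were called higher (11.9% of genes). At 24 h 5 members were called higher (6.62% of genes) and *Tnfrsf11b* lower (9.84% of genes). The 24 h call of *Tnf* was lost without replicate 1 (adjusted p = 0.0947). In IFT88siRNA 3 members were called higher at 1 h (6.91% of genes), 4 at 2 h (12.4%), 5 at 4 h (16.0%) and 5 at 8 h (10.6%). Most calls at 8 h in IFT88siRNA were lost on log2(TPM + 1). There limma put *Tnf* (0.457), *Tnfrsf11b* (0.543), *Cd40* (0.411) and *Fas* (0.552) under 1.5-fold, with adjusted p-values of 1.8e-06 to 0.0352. At 24 h *Tnfrsf1b* and *Fas* were called higher in IFT88siRNA (6.42%) and *Tnfrsf11b* lower (8.02%). Between the siRNA groups, with the 6 times tested together, *Tnf*, *Tnfrsf11b* and *Cd40* were called, against 5.51% of genes. The largest fitted differences of *Tnf* and *Cd40* in that test fell at 0 h and rest on few counts. Its call of *Cd40* was lost without replicate 1 (adjusted p = 0.129) and with limma on log2(TPM + 0.1) (adjusted p = 0.105).

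At single times, 1 of the members tested was called lower in IFT88siRNA at 1 h (2.51% of tested genes called lower), 2 at 2 h (0.455%), 1 at 4 h (0.412%) and 1 at 8 h (0.659%). *Tnfsf11* was not tested at any time. *Tnf* had too few counts to be tested at 0 and 24 h, and *Cd40* at 0, 1, 2 and 24 h. At 0 h (2.25% of genes called) and at 24 h (1.18%) edgeR called 0 of the members it tested. At each of these times 1 member had an unadjusted p under 0.05 (*Tnfrsf1a* and *Tnfrsf11b*), and DESeq2 called 0. By adjusted p alone, without the fold threshold, 1 member passed at 0 h (19.5% of genes), 4 at 1 h (19.1%), 2 at 4 h (4.03%) and 2 at 8 h (4.35%), and 1 in the test of response (5.58%). In the test of a different response from 0 h, edgeR called 0 of the members it tested, against 1.23% of genes. There 3 had an unadjusted p under 0.05 (*Tnfrsf11b*, *Fas* and *Cd40*), and DESeq2 called 0. For *Tnf* the largest fitted difference in that test was -3.01 at an adjusted p of 0.426, which rests on 0 to 2 counts per library at 0 h. On log2(TPM + 1), where such low values weigh less, limma gave a largest difference of -1.25 for *Tnf* at an adjusted p of 0.00054. With 1 added, the groups hardly differ at 0 h, so this value largely repeats the difference in level at 1 h (-1.18 on that scale).

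**Figure D2:**
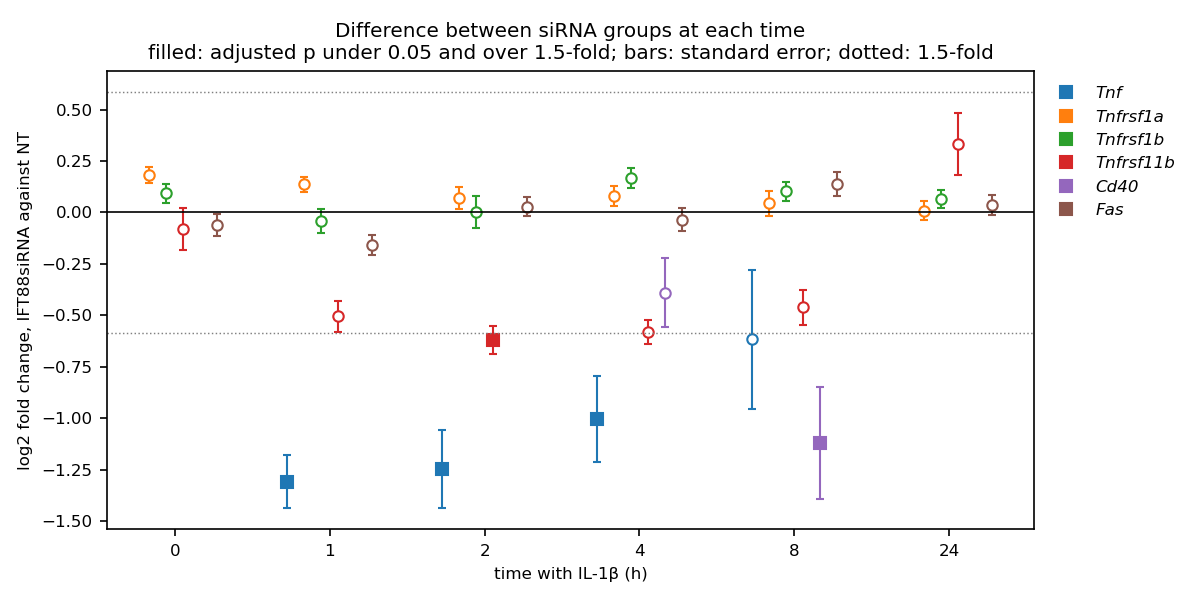
Log2 fold change of IFT88siRNA against NT at each time for the 6 members that passed the filter on low counts, with standard errors (3 libraries against 3). *Tnf* at 0 and 24 h and *Cd40* at 0, 1, 2 and 24 h had too few counts to test and have no point. Filled squares passed an adjusted p under 0.05 and 1.5-fold (dotted lines). *Tnf* at 1, 2 and 4 h, *Tnfrsf11b* at 2 h and *Cd40* at 8 h lie below the lower line, and *Tnfrsf1a*, *Tnfrsf1b* and *Fas* stay between -0.16 and 0.18.

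Levels of different genes were compared in TPM, which takes account of transcript length. In NT at 0 h the mean was 167 TPM for *Tnfrsf1a*, 62.6 TPM for *Fas*, 31.7 TPM for *Tnfrsf1b*, 6.12 TPM for *Tnfrsf11b* and 0.211 TPM for *Cd40*. *Tnf* at 0.0175 TPM and *Tnfsf11* at 0.0145 TPM overlapped, and the other neighbours in this order did not overlap. At 1 h *Tnf*, at 12.8 TPM, lay just below *Tnfrsf11b* at 17.1 TPM. At 2 h *Fas* became the most abundant member, at 202 TPM against 128 TPM for *Tnfrsf1a*, and this exchange was seen in both groups. The ratio of *Fas* to *Tnfrsf1a* was between 1.53 and 1.59 in the NT libraries and between 1.49 and 1.52 in the IFT88siRNA libraries at 2 h, and below 1 at the other times. The ratio of *Tnfrsf1b* to *Tnfrsf1a* also moved with time, from 0.19 ± 0.00584 (SD, n = 3) at 0 h in NT to 0.16 ± 0.0153 at 1 h, 0.458 ± 0.0562 at 2 h and 0.211 ± 0.00516 at 24 h. In IFT88siRNA it was 0.185 ± 0.00978, 0.141 ± 0.00378, 0.431 ± 0.0399 and 0.222 ± 0.00465 at these times.

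**Figure D3:**
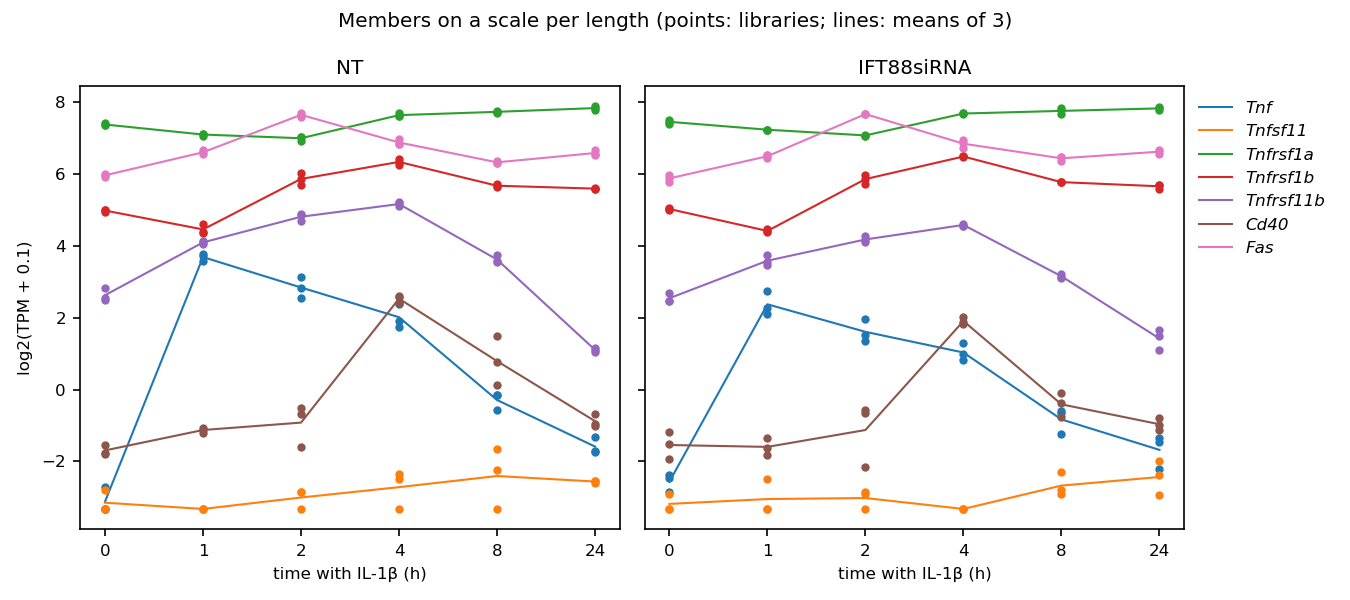
Log2(TPM + 0.1) of the 7 members against time with IL-1β, NT on the left and IFT88siRNA on the right (points are libraries, lines join means of 3). *Tnfrsf1a* is the highest member at every time but 2 h, when *Fas* passes it (202 against 128 TPM in NT), and *Tnfsf11* is the lowest or among the lowest throughout.

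The genes with courses most like those of the members are given as a description over 12 condition means, which share libraries and the strong common effect of time. By Pearson's r of mean log2 CPM among 16709 other genes, *Tnf* was closest to *Tgif1* (r = 0.982), *Noct* (0.979) and *Pim1* (0.976). *Tnfrsf1a* was closest to *Tmem173* (0.988), *Extl3* and *Vnn1*, and *Tnfrsf1b* to *Zbtb7a* (0.985), *Ppp2r1b* and *Prss22*. *Tnfrsf11b* was closest to *Acta1* (0.986), *Adgrf5* and *Dhrs9*, *Cd40* to *Gsdmd* (0.981), *Ascc3* and *Ifi204*, and *Fas* to *Tnfaip1* (0.979), *Gdap2* and *Cdr2*.

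The rest of the family and the steps below its receptors were followed in 6 lists with 78 genes, of which 67 passed the filter in NT. Of these, 47 were called over the NT course (70.1%, against 50.2% of all genes tested). The lists were chosen with earlier results of these data known, so their shares are not independent of these data. At 4 h 29 were called higher and 4 lower than at 0 h (16.3% and 12.5% of all genes). Among 16 further ligands, 11 were tested, and 6 rose (16.3% of all genes called higher) and 0 fell at 4 h, with a median log2 change of 0.76 against -0.02 for all genes. *Tnfsf10*, which encodes the death ligand TRAIL, rose in NT from a mean of 1.48 CPM to 95.6 CPM at 4 h, a log2 change of 6.01 (SE 0.15). *Tnfsf15* rose from 0.626 to 32.7 CPM (5.71, SE 0.15), and *Tnfsf8*, the ligand of CD30, from 0.0564 to 0.944 CPM. *Tnfsf4*, the ligand of OX40, had a mean of 0.58 CPM at its highest, so its rise rests on few counts.

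Among 23 further receptors, 17 were tested. At 2 h 5 of them were called higher and 6 lower (13.0% and 14.4% of all genes). *Tnfrsf9*, the receptor 4-1BB, went from 1.74 CPM before IL-1β to 29.4 ± 1.30 CPM at 8 h, with 30.9 ± 1.03 CPM in the last samples (log2 change at 24 h 4.15, SE 0.13). *Tnfrsf11a*, which encodes RANK, the receptor of RANKL, was at 2.40 CPM at 0 h, 7.61 CPM at 2 h and 1.35 CPM at 24 h. *Tnfrsf14* peaked at 4 h (2.04, SE 0.14), and *Ngfr*, a low-affinity neurotrophin receptor, was lower at 24 h (-1.75, SE 0.31).

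Among 10 adaptors, *Traf1* rose from 0.241 to 8.74 CPM at 4 h (5.15, SE 0.31), *Tank* and *Traf5* were highest at 2 h (1.33 and 1.16), and *Traf3* passed at 2 h alone (0.75, SE 0.05). Of 17 genes of the TNF receptor 1 complex, 9 were called over the NT course (52.9%, near the background). They included *Tnfaip3*, which encodes the ubiquitin-editing inhibitor A20 and rose from 31.9 to 2714 CPM at 1 h (6.41, SE 0.06). They also included *Birc3* (2.71 at 2 h), *Tnip1* (1.88 at 4 h), whose product binds A20, and *Rnf31* (1.46 at 4 h), a part of the linear ubiquitin ligase. Of 7 genes of cell death below the receptors, 5 rose at 4 h in NT (16.3% of all genes called higher), with a median change of 0.94. At 1, 2 and 8 h 1 of 7 was called (18.8%, 27.4% and 19.9% of all genes), with medians of -0.18, -0.25 and 0.30. At 24 h edgeR called 0 (16.5% of all genes). *Mlkl*, the effector of necroptosis, rose by 1.91 (SE 0.04), *Bid* by 1.82, and *Cflar*, which encodes an inhibitor of caspase 8, by 1.19. Among 5 genes of receptor and ligand shedding, *Timp3*, an inhibitor of ADAM17, rose from 998 to 3102 CPM at 2 h (1.63, SE 0.05). *Rhbdf1* and *Rhbdf2*, which encode partners of ADAM17, rose at 2 h by 0.88 and 0.59, and *Adam17* itself was past 1.5-fold at 24 h alone (0.61, SE 0.04).

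Between the siRNA groups, 11 of the 78 list genes were called at 1 or more times, in 18 calls of which 14 were lower in IFT88siRNA and 4 higher. With the 6 times tested together, 10 of 67 were called (14.9%, against 5.51% of all genes). Here too the lists were chosen with earlier results of these data known. At single times 3 of 64 were called at 0 h (2.25% of all genes), 5 of 64 at 1 h (2.7%), 2 of 65 at 4 h (0.453%), 4 of 65 at 8 h (0.745%) and 4 of 65 at 24 h (1.18%). At 2 h edgeR called 0 of 63 (0.489% of all genes), 11 had an unadjusted p under 0.05, and DESeq2 called 1. Most calls over all genes were lower in IFT88siRNA too, with 372 of 399 at 1 h, 61 of 67 at 4 h and 100 of 113 at 8 h. The 5 list genes called at 1 h were all lower, among them *Ltb*, the neighbour of *Tnf*, with a log2 difference of -1.41 (SE 0.39, adjusted p = 0.0201) at 0.628 CPM in NT. *Traf1* was lower at 1 h (-0.86) and 8 h (-0.79), and *Tnfaip3* at 4 h (-0.62, SE 0.04, adjusted p = 2.77e-06) and 8 h (-0.62). The mean of *Tnfaip3* was already lower in IFT88siRNA at 0 h, at 23.4 CPM against 31.9 CPM in NT. In edgeR its change from 0 h differed by -0.17 at 4 h (adjusted p = 0.423) and -0.155 at 8 h (adjusted p = 0.569). Neither passed, while the difference of 0.31 at 2 h passed the adjusted p (0.0419). *Tnfsf18*, the ligand of GITR, was lower at 1, 4 and 8 h (-0.66, -0.88 and -0.94), and *Tnfsf15* at 8 h (-0.62). *Tnfrsf9* was lower at 0 and 1 h (-0.78 and -0.86), and under 1.5-fold it also passed the adjusted p later, with -0.446 at 8 h (adjusted p = 0.00646) and -0.562 in the 24 h samples (adjusted p = 2.85e-05). *Tnfrsf13c*, the BAFF receptor, was lower at 0 and 1 h (-0.98 and -1.29). *Tnfrsf26* was lower at 24 h (-0.65). The 4 calls higher in IFT88siRNA were *Tnfsf10* at 0 h (0.65) and 24 h (0.69), and *Tnfsf13b*, which encodes BAFF (0.77), and *Edar* (0.84) at 24 h. Of these 18 calls, 1 was kept in all 6 fits that left out 1 library, that of *Tnfaip3* at 4 h. DESeq2 gave no adjusted p for 5 of them and left 4 at an adjusted p of 0.0685 to 0.117. In the cell death list edgeR called 0 of 7 genes at each of the 6 times, with 1 to 5 at an unadjusted p under 0.05, and in the shedding list 0 of 5, with 0 to 4, and DESeq2 called 0 in both. *Cflar* passed the adjusted p, under 1.5-fold, at 5 times (-0.20 to -0.41), and at 2 h had a difference of -0.36 (adjusted p = 0.0628). Over the alternatives its difference came as close to 0 as -0.153 at 0 h and -0.219 at 24 h, and its adjusted p reached 0.369 and 0.164 there.

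**Figure D4:**
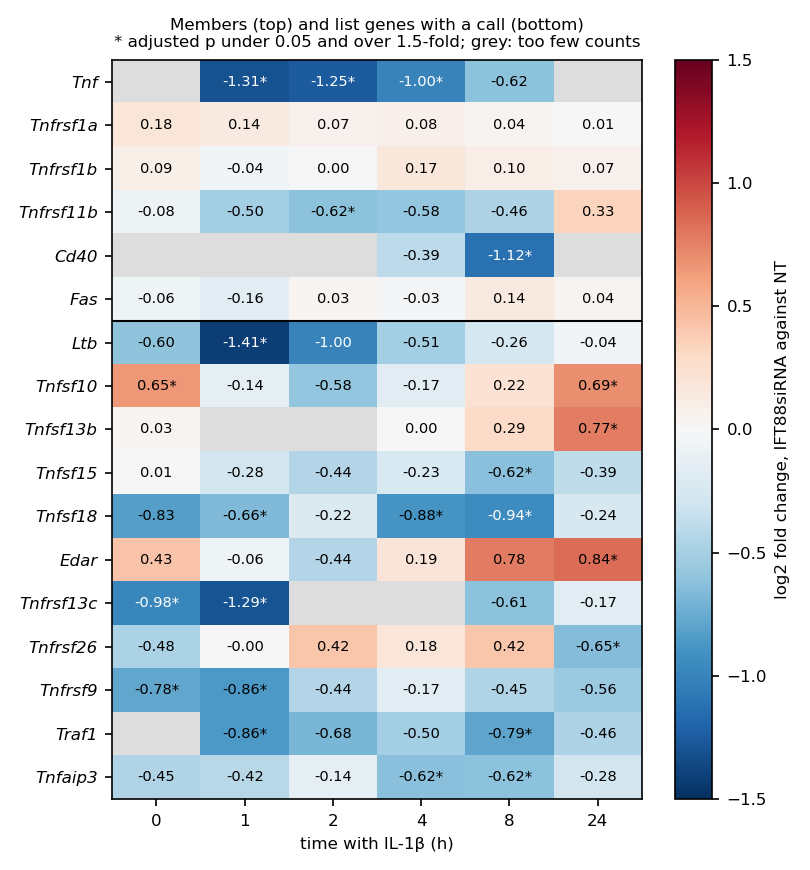
Log2 fold change of IFT88siRNA against NT at each time (3 libraries against 3) for the 6 tested members, above the line, and for the 11 list genes called at 1 or more times, below it. Stars mark an adjusted p under 0.05 with over 1.5-fold, and grey marks too few counts to test. The calls from 1 to 8 h are all negative, from *Ltb* (-1.41) and *Tnf* (-1.31) at 1 h to *Cd40* at 8 h (-1.12), and the positive ones are at 0 and 24 h. Over all genes, too, most calls from 1 to 8 h were negative.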

How the data were processed

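Reads of 36 poly(A) libraries were aligned by the authors with HISAT2 2.1.0 to GRCm38, and the deposited counts per gene, whole numbers without normalization, came from featureCounts (Subread 1.6.3, default parameters, so without regard to strand). The deposited TPM values were made by the authors with Salmon 0.9.1. Groups came from the sample labels. The count tests used edgeR 4.0.16 under R 4.3.3, with TMM scaling, filterByExpr, and two-sided quasi-likelihood F-tests with Benjamini-Hochberg adjustment over all genes tested. A call needed an adjusted p under 0.05 and a fold change over 1.5. The standard error was taken as the size of the log2 change over √F. Times were compared within each group of 18 libraries, siRNA groups with 3 against 3 libraries at each time, and responses over all 36. The procedure was tested on simulated counts.

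Alternatives were DESeq2 1.42.0, other size factors, no filter, no fold threshold, limma 3.58.1 on log2(TPM + 1) or log2(TPM + 0.1), a replicate block, and leaving out libraries. Intervals of ratios are exact at 95%. Total counts of 19337022 to 38304127 limit the precision of *Tnf*, *Cd40* and *Tnfsf11* most. Replicates of a condition differed by more than sampling noise (chi-square per degree of freedom 1.65 to 10). Genes named are all members, from each list the 4 called genes with the largest NT change and each gene called between siRNA groups, and for each tested member the 3 genes most like it. Some genes that the rule names are not reported here. The members and lists were chosen with earlier results of these data known. Positions came from GENCODE and promoters from RefSeq, which matched 5 of 7 members (not *Cd40* or *Tnfrsf11b*).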

Additional observations from a re-analysis of the deposited data

Results flagged for a closer look

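The 5 differences in the change from 0 h were tested together by edgeR. Among the 6 tested members and the list genes that the rule named, 7 had a response to IL-1β that differed between IFT88siRNA and NT by adjusted p alone (5.58% of all genes). Of these, 2 were also past 1.5-fold (1.23% of all genes). The rule takes genes with large NT changes or calls between the siRNA groups, so these counts and shares are not on like sets. For *Tnfrsf11b* the adjusted p was 0.000548, with a largest difference of -0.54 on the log2 scale at 2 h. For *Tnfaip3* it was 4.24e-05, with a largest difference of 0.31 at 2 h. *Birc3* (adjusted p = 0.00444, largest difference -0.49), *Timp3* (0.00457, 0.21) and *Tnip1* (0.0379, -0.36) were also under 1.5-fold. *Tnfsf10* (adjusted p = 0.00706, -1.22 at 2 h) and *Tnfrsf26* (0.0159, 0.91 at 8 h) were past it. Tested alone by edgeR, neither difference passed, with an adjusted p of 0.0658 for *Tnfsf10* at 2 h and 0.125 for *Tnfrsf26* at 8 h. For *Tnfrsf11b* the 4 differences in the change from 1 h, a test chosen after the levels were seen, gave an adjusted p of 0.0028.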

How the results depend on the processing

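The counts of members called over the NT course, the IFT88siRNA course and all siRNA differences stayed within 1.5 times under each alternative, as did the count at 24 h. Within that range, the count over all siRNA differences went from 3 to 2 without replicate 1 and on log2(TPM + 0.1), where *Cd40* was lost. Without the fold threshold, 1 member had a different response, 1 was called at 0 h, 4 at 1 h, 2 at 4 h and 2 at 8 h. On log2(TPM + 1) and on log2(TPM + 0.1), limma called 1 member in the response, 1 at 2 h, 0 at 4 h and 0 at 8 h. Without the TPM filter it called 1 in the response and 0 at each of 1, 2, 4 and 8 h. DESeq2 gave no adjusted p for *Tnf* at 4 h or *Cd40* at 8 h, so no count is given for it there. Leaving out 1 replicate gave 0 to 1 members in the response, 1 to 2 at 1 h, 0 to 2 at 2 h, 0 to 2 at 4 h and 0 to 1 at 8 h. Within 200 bases before the start, 0 of 5 promoters held the AP-1 site. Apart from the shorter promoter window and the dropped threshold, the cause of these changes was not tested.

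In the tests of several times together, the largest difference could fall at another time and so change sign. For *Tnf* over all siRNA differences it was 1.71 from counts and -1.18 on log2(TPM + 1), for *Cd40* 1.34 and -0.691, for *Tnfrsf1a* over the IFT88siRNA course 0.463 and -0.376, and for the *Tnfrsf11b* response -0.535, or 0.588 without replicate 3. Among differences at single times, the signs that changed were of small ones that did not pass. On TPM with limma, *Tnfrsf1a* at 24 h became -0.0081 (-0.00814 with 0.1 added), *Tnfrsf1b* at 2 h -0.00374 (-0.00377) and *Cd40* in IFT88siRNA at 2 h against 0 h 0.161 (0.418). Leaving out 1 library gave -0.0156 to 0.029 for *Tnfrsf1a* at 24 h, -0.0808 to 0.0405 for *Tnfrsf1b* at 1 h and -0.074 to 0.0717 at 2 h, -0.164 to 0.0229 for *Tnfrsf11b* at 0 h, -0.588 to 0.277 for *Cd40* in IFT88siRNA at 2 h against 0 h, and -0.0809 to 0.0198 for *Fas* at 4 h.

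The replicate numbers gave no clear sign of pairing between NT and IFT88siRNA libraries of a time, which cannot show whether they were handled together. Deviations of same-numbered NT and IFT88siRNA libraries correlated at -0.133 to 0.223, over 0.1 in 2 of 18 pairs. With a replicate block, the counts of called members were within 1.5 times of those without it, *Tnfrsf1b* at 2 h became -0.000369, and *Tnf* at 24 h against 0 h in IFT88siRNA was called (adjusted p = 0.0347). Depth limits *Tnfsf11* throughout, *Tnf* at 0 and 24 h, and *Cd40* outside 4 and 8 h.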
